A study of Mus musculus with 12 samples.

Results

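Solute carrier (SLC) transporters are described here in mouse bone-marrow-derived macrophages labelled Fes+/+ or Fes-/- (Fes encodes the tyrosine kinase FES), at rest and after lipopolysaccharide (LPS). The genes were chosen by name and by measured level: rows whose symbol begins with Slc and a digit and whose mean reached 500 raw counts over the 12 libraries. Of 383 such rows, 154 reached that level, and 11 of them (among them the glucose carrier Slc2a1, the cystine carrier Slc7a11 and the iron exporter Slc40a1) were left out by the rule, which left 143 of the 55487 genes in the table. The level over all libraries therefore chose the genes, with no test between groups. The treatments still weighed on the choice, since 20 of the 143 reached 500 counts under PBS only. The last genes to enter were Slc24a3, Slc12a2, Slc26a6, Slc37a1 and Slc37a4, at 592.1, 557.3, 551.0, 543.1 and 511.5 mean counts, and the first below it were Slc25a23, Slc25a15, Slc25a43, Slc17a9 and Slc15a2, at 493.2, 487.8, 400.8, 395.9 and 390.0.

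Macrophages were grown from the marrow of Fes+/+ (wild-type) and Fes-/- mice with macrophage colony-stimulating factor (M-CSF), and poly-A-enriched RNA was sequenced. Cells of each genotype received PBS (called untreated in the protocol) or 1 µg/mL LPS for 4 hours, which gave 4 groups of 3 libraries: Fes+/+ with PBS, Fes+/+ with LPS, Fes-/- with PBS and Fes-/- with LPS. The design text gives 3 mice for each genotype, and neither the age and strain of the mice nor the kind of Fes allele is given in the sources used here. All 12 libraries carry 1 batch date.

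SLC proteins carry sugars, amino acids, nucleosides, vitamins, metals and inorganic ions across the plasma membrane and the membranes of mitochondria, lysosomes and the Golgi, driven by ion gradients or by exchange rather than by ATP hydrolysis. In macrophages they feed the switch of metabolism that follows LPS sensing by TLR4, they move nutrients out of the phagolysosome, and they hold zinc, copper and iron away from or toward ingested microbes. Gene families are numbered by sequence kinship, and the classes used below follow the family numbers, so that single genes of a class may carry another substrate.

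The libraries held 61016254 to 101027166 counts. The 143 genes took 1.18% to 1.31% of the counts of each library, and all 143 passed the filter on low counts. Levels of a gene are given as CPM (counts scaled to the library size after correction by trimmed mean of M-values, TMM), and levels between genes are compared only in TPM, which is per transcript length. Fes itself was at 169 to 189 CPM in Fes+/+ PBS, 152 to 171 in Fes+/+ LPS, 66.4 to 70.5 in Fes-/- PBS and 32.9 to 35.1 in Fes-/- LPS libraries, so the libraries labelled Fes-/- were lower in each treatment and still held Fes reads. The 10 macrophage markers (Csf1r, Adgre1, Cd68 and others) summed to 29100 to 39600 TPM under PBS and 17200 to 22500 TPM under LPS. Lyz2 held most of each sum (20250 to 29390 TPM under PBS and 9709 to 14210 under LPS). Cd14 went the other way, from 530 to 766.5 TPM under PBS to 2079 to 2399 under LPS, as did Fcgr1. In Fes+/+ 4 of the 10 rose and 4 fell by TMM (34.6% and 38.8% of all genes). On log2(TPM + 1) 2 rose and 8 fell (15.9% and 69.2%). Markers of other cells were low: 10 neutrophil markers summed to at most 45.1 TPM, 6 B cell markers to at most 25.7, 7 T cell markers to at most 15.4, 6 markers of fibroblasts and endothelium to at most 11.5, 7 dendritic cell markers to at most 1.61 and 5 erythroid markers to at most 0.47, with Hbb-bs and Alas2 at 0 in every library. Some of these sums moved with LPS in both genotypes: in Fes+/+ the B cell sum was 19.3 to 25.7 TPM under PBS and 3.94 to 4.6 under LPS (Cd79b held most of it), the T cell sum 3.51 to 8.36 and 12.2 to 15.4 (mostly Lck, with Cd3e at 0 in 11 of the 12 libraries), and the fibroblast and endothelium sum 1.02 to 1.54 and 8.39 to 11.5 (mostly Cdh5). Their part in the results below was not tested. In bulk RNA a smaller share of cells of a type and less RNA per cell cannot be told apart.

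LPS changed most of the carriers, and none was called in opposite directions in the 2 genotypes. In Fes+/+ macrophages 47 of the 143 genes rose and 71 fell, with 25 not called, by edgeR's quasi-likelihood test with Benjamini-Hochberg adjustment over 15801 genes. That is 32.9% higher and 49.7% lower, beside 34.6% and 38.8% of all genes tested, and the median log2 change was -0.21 for the carriers and -0.07 for all genes. In Fes-/- macrophages 50 rose and 68 fell, beside 34.3% and 38.9% of all genes. In either direction 118 were called in each genotype, beside 73.4% of all genes in Fes+/+ and 73.2% in Fes-/-. The PBS and LPS libraries did not overlap in CPM for 116 carriers in Fes+/+ (75.3% of all genes) and 124 in Fes-/- (77.2%). The share that rose was close to the background, and the share that fell was above it. The rule itself let in genes through PBS, since 20 of the 143 reached 500 counts under PBS only and 0 under LPS only, so nothing is read from the larger count of falls. Falls of these 20 genes are given below as descriptions without p values, since their level under PBS let them in. Across genotypes 47 genes rose in both, 66 fell in both, 20 were called in neither, 10 in 1 genotype only, and 0 in opposite directions.

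**Figure D1:**
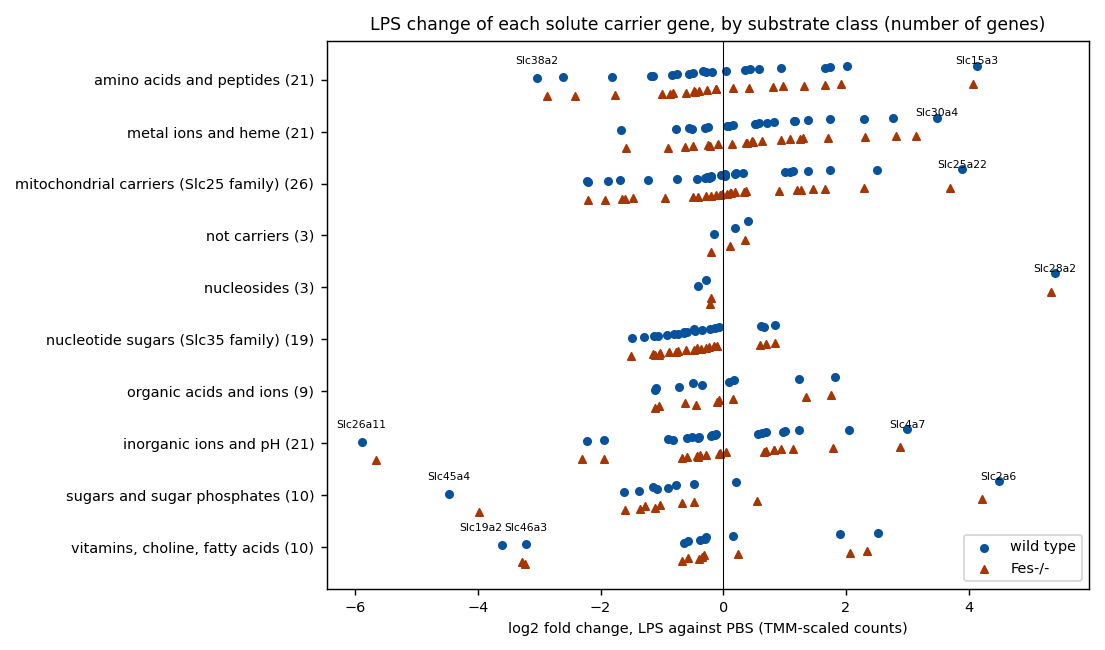
Log2 fold change of each of the 143 genes, LPS against PBS, on TMM-scaled counts (x axis), by substrate class (y axis, with the number of genes), for Fes+/+ (circles) and Fes-/- (triangles). The 2 genotypes sit beside each other for nearly every gene; Slc28a2 lies farthest right at 5.40 and 5.34, and Slc26a11 farthest left at -5.90 and -5.66.

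How many carriers count as higher depends on the scaling, and rises, falls and calls are by TMM unless another scaling is named. TMM factors were 1.35 to 1.402 in PBS and 0.7069 to 0.7368 in LPS libraries, so TMM and plain library totals differ by nearly 1 log2 unit for LPS. By library totals 25 genes rose and 109 fell in Fes+/+ (16.3% and 68.5% of all genes), and on log2(TPM + 1) the counts were 22 and 109 (15.9% and 69.2%). In Fes-/- they were 24 and 107 (15.9% and 70.0%) and 23 and 108 (15.5% and 70.9%), and the median of all genes in Fes+/+ moved to -0.98 by totals and -0.67 on log2(TPM + 1). On all 5 scalings tried (TMM, relative log expression, totals, and TPM with a pseudocount of 1 or 0.1) 20 genes were higher and 59 lower in both genotypes. The share of all genes on all 5 scalings was not counted, so nothing is read from these counts or from those by class below. For 11 others a rise by TMM was a fall on another scaling: Slc12a9, Slc25a3, Slc25a5, Slc25a10, Slc30a9, Slc35d1, Slc39a6, Slc39a13, Slc41a2, Slc4a1ap and Slc6a6. The 20 genes that TMM called in neither genotype were all called lower in both by library totals.

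**Figure D2:**
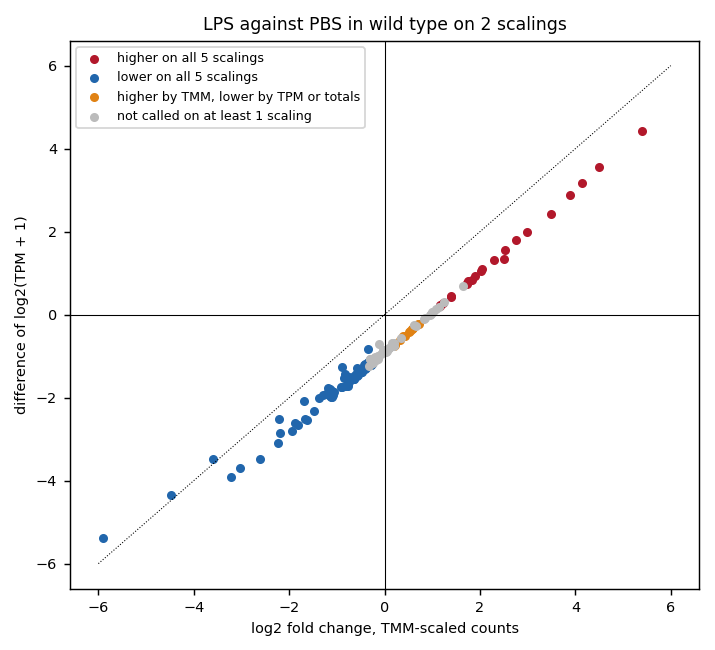
Change with LPS in Fes+/+ on TMM-scaled counts (x axis, log2 fold change) and as a difference of log2(TPM + 1) (y axis) for the 143 genes; the dotted line marks equal values. Points lie below the line by nearly 1 log2 unit over most of the range; the genes called higher on all 5 scalings in Fes+/+ (red) and lower (blue) keep their direction, and the orange genes change it.

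The start regions of the 12 highest rises and the 12 largest falls were read for 4 short motifs, since these genes moved together in both genotypes. RefSeq promoter entries (GRCm38.p6, 250 bases before to 50 after a start) matched 110 of the 143 carriers, 11 of the 12 rises (21 promoters, since a gene can have several) and 9 of the 12 falls (10 promoters). Both strands were searched, with no allowance for mismatches. An NF-κB-like motif (GGGA, any 2 bases, TTCC) was in 0 of the 21 promoters of rises and 0 of the 10 of falls, beside 1.47% of all 32851 promoters. An interferon-response-like motif (TTTC, any 2 bases, TTTC) was in 1 of the 21 (Slc25a22) and 0 of the 10, beside 3.44% of promoters. The cyclic-AMP-type palindrome TGACGTCA was in 1 of the 21 (Slc25a25) and 1 of the 10 (Slc25a36), beside 1.79%. The E-box CACGTG, the core of the site read by MYC and by the lysosomal regulators TFEB and TFE3, was in 2 of the 21 (Slc31a2 and Slc49a4) and 2 of the 10 (Slc25a36 and Slc36a1), beside 7.15%. The 4 regions printed next are the highest rise, the rises with the interferon-type and cyclic-AMP-type motif, and the fall with 2 E-boxes, each read along the gene's own strand, with motif letters in capitals.
Slc28a2, chr2:122426185-122426484, plus strand: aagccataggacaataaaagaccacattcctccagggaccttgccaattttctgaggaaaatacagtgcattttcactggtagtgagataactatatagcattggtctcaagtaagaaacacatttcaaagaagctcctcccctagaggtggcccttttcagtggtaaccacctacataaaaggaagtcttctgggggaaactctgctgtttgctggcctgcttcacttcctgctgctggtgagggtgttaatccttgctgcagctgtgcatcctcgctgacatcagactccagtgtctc
Slc25a22, chr7:141435326-141435625, minus strand: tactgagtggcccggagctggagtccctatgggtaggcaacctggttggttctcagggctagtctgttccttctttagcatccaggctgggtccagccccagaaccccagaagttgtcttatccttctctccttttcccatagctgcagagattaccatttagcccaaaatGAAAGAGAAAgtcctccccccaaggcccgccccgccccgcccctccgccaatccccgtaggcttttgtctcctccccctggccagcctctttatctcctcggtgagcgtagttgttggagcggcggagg
Slc25a25, chr2:32424017-32424316, minus strand: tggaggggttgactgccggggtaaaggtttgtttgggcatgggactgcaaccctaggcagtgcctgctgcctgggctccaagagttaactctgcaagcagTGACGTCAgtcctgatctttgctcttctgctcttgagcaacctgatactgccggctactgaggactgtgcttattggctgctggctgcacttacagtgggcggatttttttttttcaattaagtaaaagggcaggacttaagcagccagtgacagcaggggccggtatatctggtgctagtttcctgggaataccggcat
Slc36a1, chr11:55204090-55204389, plus strand: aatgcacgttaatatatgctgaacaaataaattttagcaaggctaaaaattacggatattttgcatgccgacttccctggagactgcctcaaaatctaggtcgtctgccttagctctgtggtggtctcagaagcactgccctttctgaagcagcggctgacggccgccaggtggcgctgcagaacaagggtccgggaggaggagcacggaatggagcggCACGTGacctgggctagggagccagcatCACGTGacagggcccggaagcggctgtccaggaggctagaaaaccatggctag
The match of Slc25a22 begins 79 bases before the start, in 1 of its 3 RefSeq starts, and lies on the reverse strand of the printed run. That of Slc25a25 begins 150 bases before the start, in 1 of its 3 RefSeq starts. The E-boxes of Slc36a1 begin 31 and 3 bases before the start. None of the 4 motifs was in the Slc28a2 region. A match is letters only, and a region without one says nothing of the factor.

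Among nucleoside carriers, 1 gene made the largest rise of all 143. Slc28a2 (ENSMUSG00000027219, chromosome 2, 122426477 to 122461137, plus strand, GRCm38 with GENCODE M21, as all gene positions here) encodes a sodium-coupled concentrative carrier of purine nucleosides and uridine. It was at 51.2, 41.6 and 49.95 CPM in the Fes+/+ PBS libraries and at 1804, 2347 and 1890 CPM in the Fes+/+ LPS libraries. In Fes-/- it was at 60.4, 42.01 and 41.2 CPM under PBS and 2006, 2045 and 1783 under LPS. Every LPS library lay far above every PBS library, and the genotypes overlapped. The log2 change was 5.40 ± 0.18 (SE, n = 3 mice each, edgeR adjusted p = 1.64e-12) in Fes+/+ and 5.34 ± 0.18 (adjusted p = 1.83e-12) in Fes-/-. In TPM it went from 52.6 ± 5.54 to 1158 ± 160 (SD) in Fes+/+ and became the most abundant of the 143 genes. A copy of it, Gm14085, is 95.92% identical over 3749 bases and held a mean of 35 counts beside 54650 for Slc28a2, and reads that fit both cannot be told apart. Of the equilibrative carriers, Slc29a1, the plasma-membrane carrier ENT1, fell with log2 changes of -0.28 and -0.20 in Fes+/+ and Fes-/- (adjusted p = 0.00373 and 0.0267), and its call in Fes-/- was lost on another scaling and with DESeq2. Slc29a3, the lysosomal carrier ENT3, fell in Fes+/+ (-0.41 ± 0.13, adjusted p = 0.0124) and was at -0.21 ± 0.13 in Fes-/- (adjusted p = 0.165).

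The sugar carriers split in the same manner. Slc2a6 (ENSMUSG00000036067, chromosome 2, 27021363 to 27027998, minus strand) encodes GLUT6, a hexose carrier of lysosomal membranes. Its libraries were at 22.7, 26.5 and 39.2 CPM in Fes+/+ PBS and 642, 644 and 698 in Fes+/+ LPS. The Fes-/- libraries were at 42.9, 36.1 and 28.9 CPM under PBS and 689, 662 and 648 under LPS. No LPS library came near a PBS library, and the changes were 4.49 ± 0.20 (adjusted p = 2.15e-10) and 4.21 ± 0.20 (adjusted p = 3.67e-10). Of the other 9 sugar and sugar phosphate carriers, 8 fell in both genotypes and on all 5 scalings, and Slc37a3 was called in 1 genotype. For all genes in Fes+/+ the share that fell was 38.8% by TMM and 68.5% by library totals. Of the 8, Slc37a1, Slc37a4 and Slc45a4 reached the count level of the rule under PBS only. Nothing is therefore read from the count of falls. The family members of Slc2a6 were among the falls: the neuronal-type glucose carrier Slc2a3 (GLUT3) fell with log2 changes of -1.14 and -1.02, the intracellular GLUT8 gene Slc2a8 with -1.08 and -1.12, and Slc2a9, which carries urate, with -0.48 and -0.48 (highest adjusted p of the 6 = 0.00011).

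Slc45a4, 3 genes of the Slc37 family and Slc50a1 were the other falls. Slc45a4 (ENSMUSG00000079020, chromosome 15, 73577424 to 73645762, minus strand), of a family related to plant sucrose carriers, was at 58.8, 77.2 and 64.6 CPM in Fes+/+ PBS and 3.34, 2.16 and 3.54 in Fes+/+ LPS. In Fes-/- it was at 60.8, 55.2 and 60.9 and 4.05, 3.96 and 3.17 CPM. The PBS and LPS libraries lay more than 10-fold apart, with changes of -4.47 ± 0.17 and -3.98 ± 0.16. Slc37a2, a phosphate-linked glucose-6-phosphate exchanger of the endoplasmic reticulum that is abundant in macrophages, fell from 315 ± 22.8 to 103 ± 11.99 CPM in Fes+/+ (-1.62 ± 0.09, adjusted p = 6.52e-10) and fell with a log2 change of -1.60 in Fes-/-. Its relative Slc37a4, the glucose-6-phosphate translocase, fell with log2 changes of -1.38 and -1.35, and Slc37a1 with -0.90 and -1.27. Slc50a1, the mammalian SWEET-type sugar carrier, fell with log2 changes of -0.77 and -0.67 (adjusted p = 9.18e-06 and 3.3e-05).

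**Figure D3:**
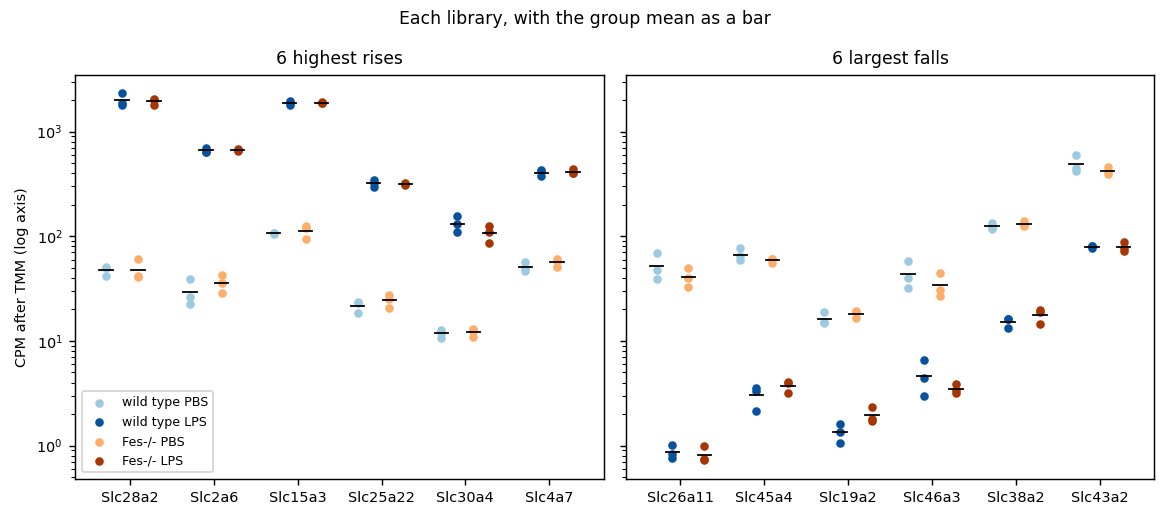
CPM after TMM (log axis) of the 6 highest rises (left) and 6 largest falls (right), 1 point for each library and a bar for each group mean. PBS and LPS libraries do not overlap for any of the 12 genes, while Fes+/+ and Fes-/- libraries lie beside each other; Slc26a11 and Slc45a4 end near or below 4 CPM.

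Of 21 amino acid and peptide carriers, 7 rose and 10 fell in Fes+/+, and 7 rose and 11 fell in Fes-/- by TMM (median -0.28 and -0.26). Among all genes, 34.6% rose and 38.8% fell in Fes+/+. On all 5 scalings 3 were higher and 10 lower in both genotypes. The highest rise was Slc15a3 (ENSMUSG00000024737, chromosome 19, 10839727 to 10859362, plus strand), a proton-coupled carrier of histidine and short peptides in endolysosomes. It was at 107, 108 and 106 CPM in Fes+/+ PBS and 1809, 1943 and 1890 in Fes+/+ LPS. Fes-/- libraries held 125, 120 and 93.9 CPM under PBS and 1864, 1919 and 1887 under LPS. The spread within each group was small beside the change, which was 4.14 ± 0.11 and 4.06 ± 0.11 (adjusted p = 1.7e-13 and 1.94e-13). Exons of Tmem132a on the opposite strand overlap 28.06% of the Slc15a3 exon length, with 435.2 mean counts beside 54900. Its closest relative Slc15a4, the other endolysosomal histidine and peptide carrier, fell with log2 changes of -0.75 and -0.61 (adjusted p = 9.17e-06 and 7.23e-05).

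Light chains that pair with the heavy chain 4F2hc moved in both directions. Slc7a7, the light chain that exports cationic amino acids in exchange for neutral ones, rose from 16.3 ± 1.06 to 66.1 ± 1.47 CPM in Fes+/+ and from 15.8 ± 1.40 to 59.9 ± 3.28 in Fes-/- (2.02 ± 0.08 and 1.92 ± 0.08, adjusted p = 1.25e-11 and 2.09e-11). Slc7a8, a light chain for neutral amino acids and the neighbour of Slc7a7 on chromosome 14, rose by 1.74 and 1.65 to 1028 ± 25.2 and 1068 ± 25.4 CPM. Slc7a5 (LAT1) rose by 1.65 ± 0.37 and 1.32 ± 0.36 by TMM (adjusted p = 0.00225 and 0.00764), with libraries of 12.9, 7.996 and 14.7 CPM under PBS and 36.3, 27.9 and 48.01 under LPS in Fes+/+, and lost its call on another scaling. Another light chain, Slc7a6, fell with log2 changes of -0.84 and -0.82, on all 5 scalings. Slc3a2, the heavy chain itself, rose by 0.94 and 0.98 by TMM, but its difference of log2(TPM + 1) was 0.00 and 0.01. Slc6a6, which carries taurine and was the second most abundant carrier under PBS, rose by 0.43 and 0.42 by TMM and fell by 0.51 and 0.56 on log2(TPM + 1).

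The 2 adjacent system A genes moved apart. Slc38a2, which takes up glutamine and alanine and lies 44.5 kb from Slc38a1 on chromosome 15, was at 133, 118 and 124 CPM in Fes+/+ PBS and 13.2, 16.3 and 16.1 in Fes+/+ LPS. In Fes-/- it was at 141, 128 and 125 and 18.97, 19.9 and 14.6 CPM. PBS libraries stood several-fold above LPS libraries, with changes of -3.04 ± 0.12 and -2.88 ± 0.12 (adjusted p = 7.89e-12 and 1.19e-11). Slc38a1, with the same kind of substrates, rose by 0.58 ± 0.08 and 0.80 ± 0.08 by TMM (adjusted p = 6.9e-06 and 1.84e-07), with differences of -0.35 and -0.17 on log2(TPM + 1), where the first was called lower. The facilitative carrier of branched-chain amino acids Slc43a2 (LAT4) fell from 487 ± 93.05 to 79.8 ± 2.29 CPM in Fes+/+ and from 424 ± 36.8 to 79.6 ± 7.96 in Fes-/- (-2.61 ± 0.12 and -2.42 ± 0.12, adjusted p = 6.97e-11 and 1.48e-10). Slc36a1, a proton-coupled lysosomal exporter of small amino acids, fell with log2 changes of -1.82 and -1.77, Slc36a4 with -1.14 and -0.86, and Slc38a9, the arginine sensor of mTORC1, with -1.18 and -1.004. Slc38a7, Slc1a5 and Slc38a10 were also lower on all 5 scalings in both genotypes, at -0.57, -0.49 and -0.28 in Fes+/+. Slc6a8, the creatine carrier, Slc43a3 and Slc38a6 were called in neither genotype by TMM, and Slc66a2 in Fes-/- only. The longest shared run of Slc38a6 with another annotated protein-coding gene, Noct, is 98.52% identical over 3240 bases, so its value is uncertain.

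Metal carriers were the class with most rises, 12 of 21 in Fes+/+ (6 fell) and 13 in Fes-/- (5 fell), by TMM, with medians of 0.54 and 0.46, while by library totals 7 rose and 13 fell in Fes+/+. For all genes in Fes+/+ the shares were 34.6% higher and 38.8% lower by TMM, and 16.3% and 68.5% by totals. On all 5 scalings 6 were higher and 5 lower in both genotypes. Slc30a4 (ZnT4, ENSMUSG00000005802, chromosome 2, 122681233 to 122702663, minus strand), which moves zinc out of the cytosol into vesicles, was at 11.9, 10.7 and 12.8 CPM in Fes+/+ PBS and 109, 156 and 130 in Fes+/+ LPS. In Fes-/- it was at 12.97, 12.4 and 10.8 and 109, 86.97 and 125 CPM. The LPS libraries were all higher than the PBS libraries, and their changes were 3.48 ± 0.16 and 3.15 ± 0.15 (adjusted p = 9.55e-11 and 2.39e-10). Slc30a1 (ZnT1), the zinc exporter of the plasma membrane, rose by 1.74 and 1.70, and the zinc importer Slc39a1 (ZIP1) by 1.38 and 1.30. Slc30a5 (ZnT5), which loads zinc in the early secretory pathway, fell from 97.3 ± 3.37 to 30.5 ± 1.26 CPM in Fes+/+ (-1.68 ± 0.08, adjusted p = 7.12e-11) and fell with a log2 change of -1.59 in Fes-/-. Its partner Slc30a6 (ZnT6) rose by 1.17 and 1.09 by TMM, and in Fes-/- this lost its call on another scaling. Slc30a7 (ZnT7) rose by 0.82 and 0.93 by TMM and was at -0.11 and -0.04 on log2(TPM + 1).

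Both copper carriers rose. Slc31a1 (CTR1), the high-affinity copper importer, went from 85.9 ± 7.73 to 192 ± 15.3 CPM in Fes+/+ and from 76.4 ± 6.68 to 182 ± 7.51 in Fes-/-, a change of 1.16 ± 0.09 and 1.25 ± 0.09 (adjusted p = 1.58e-08 and 6.53e-09). Slc31a2 (CTR2), its intracellular relative 62.3 kb away on chromosome 4, was at 34.9, 35.9 and 36.4 CPM in Fes+/+ PBS and 249, 231 and 246 in Fes+/+ LPS. Its Fes-/- libraries were at 35.8, 33.6 and 35.4 and 251, 254 and 230 CPM. The replicates lay close together and the change was 2.76 ± 0.07 and 2.81 ± 0.07 (adjusted p = 1.24e-13 and 1.09e-13). Slc49a4, a lysosomal member of the Slc49 family, rose by 2.29 and 2.31. Slc48a1 (HRG1), which brings heme out of the phagolysosome and was the third most abundant carrier under PBS, fell from 201 ± 8.96 to 117 ± 12.4 CPM in Fes+/+ (-0.78 ± 0.12, adjusted p = 3.71e-05) and fell with a log2 change of -0.90 in Fes-/-. Slc39a3, Slc39a9 and the magnesium-type carrier Slc41a3 fell as well, with log2 changes of -0.56, -0.26 and -0.50 in Fes+/+. Slc39a10 and Slc39a11 were called in neither genotype by TMM, and Slc39a8 (ZIP8) was at 0.15 ± 0.12 in Fes+/+ (adjusted p = 0.272) and 0.39 ± 0.12 in Fes-/- by TMM (adjusted p = 0.00925), against -0.69 and -0.52 on log2(TPM + 1).

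The 26 mitochondrial-type Slc25 carriers were evenly split by TMM, 10 higher and 9 lower in Fes+/+ and 10 and 10 in Fes-/-, beside 34.6% and 38.8% of all genes in Fes+/+. By library totals 6 were higher and 19 lower in each genotype, beside 16.3% and 68.5% of all genes in Fes+/+, and 4 were higher and 8 lower on all 5 scalings in both genotypes. Slc25a22 (ENSMUSG00000019082, chromosome 7, 141429744 to 141437892, minus strand), which brings glutamate into mitochondria, was at 23.1, 18.5 and 23.4 CPM in Fes+/+ PBS and 297, 346 and 323 in Fes+/+ LPS. The Fes-/- libraries were at 25.4, 27.5 and 20.4 CPM under PBS and 314, 312 and 322 under LPS. No libraries of the 2 treatments overlapped, and the change was 3.89 ± 0.12 and 3.69 ± 0.12 (adjusted p = 8.5e-13 and 1.32e-12). Slc25a12, the aspartate-glutamate exchanger of the malate-aspartate shuttle, rose from 35.5 ± 2.72 to 118 ± 8.23 CPM in Fes+/+ (1.73 ± 0.09, adjusted p = 1.72e-10) and by 1.66 in Fes-/-. Its homologue Slc25a13 was at -0.20 ± 0.15 and -0.12 ± 0.15 by TMM (adjusted p = 0.229 and 0.474) and at -1.10 and -1.06 on log2(TPM + 1). Slc25a25, a calcium-regulated ATP-Mg and phosphate exchanger, rose from 5.41 ± 1.42 to 30.9 ± 2.63 CPM (2.51 ± 0.20, adjusted p = 1.01e-07) in Fes+/+ and by 2.30 in Fes-/-. Slc25a17, a carrier of cofactors in peroxisomes, rose by 1.39 and 1.47. The mitochondrial iron importers Slc25a37 and Slc25a28 (mitoferrins) rose by 1.14 and 1.09 in Fes+/+ by TMM and lost the call there on another scaling, and Slc25a44, which carries branched-chain amino acids into mitochondria, did likewise (1.01).

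Carriers that serve oxidative phosphorylation were abundant and sat where the scaling decides. Slc25a5 (ANT2), which exchanges ADP for ATP, rose by 0.32 ± 0.10 and 0.37 ± 0.10 by TMM (adjusted p = 0.00937 and 0.00412) but fell by 0.61 and 0.61 on log2(TPM + 1), from 750 ± 97.9 to 489 ± 41.6 TPM in Fes+/+. The phosphate carrier Slc25a3 moved by 0.19 and 0.19 by TMM and -0.75 and -0.78 on log2(TPM + 1), and the dicarboxylate carrier Slc25a10 by 0.21 and 0.34 by TMM and -0.72 and -0.62 on log2(TPM + 1). Slc25a4 (ANT1) was called in neither genotype by TMM. For 8 other Slc25 genes a fall was called on every scaling in both genotypes. Slc25a36, which carries pyrimidine nucleotides, fell from 72.2 ± 5.72 to 15.7 ± 1.27 CPM in Fes+/+ and from 74.7 ± 4.54 to 16.2 ± 0.718 in Fes-/- (-2.20 ± 0.09 and -2.21 ± 0.09, adjusted p = 8.58e-12 and 7.9e-12). Slc25a45 fell with log2 changes of -2.23 and -1.93, Slc25a30 with -1.87 and -1.66, and Slc25a38, the glycine carrier of heme synthesis, with -1.22 and -1.47. The glutathione carriers Slc25a40 and Slc25a39 fell with log2 changes of -1.68 and -0.29 in Fes+/+, the NAD carrier Slc25a51 with -0.76, and Slc25a16 with -0.42. Slc25a11, the oxoglutarate carrier, fell with log2 changes of -0.26 and -0.20 by TMM and lost its call in Fes-/- on another scaling, and Slc25a24 with -0.41 in Fes-/- only. Slc25a20, Slc25a32 and Slc25a46 were called in neither genotype by TMM.

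Of the 21 carriers of protons, bicarbonate, chloride, calcium, phosphate and sulfate, 8 rose and 10 fell in Fes+/+ and 8 and 8 in Fes-/- by TMM, and 2 were higher and 7 lower in both on all 5 scalings. Beside this, 34.6% of all genes rose and 38.8% fell in Fes+/+ by TMM. The highest rise was Slc4a7 (NBCn1), which brings bicarbonate in with sodium, at 56.6, 49.7 and 46.9 CPM in Fes+/+ PBS and 375, 427 and 419 in Fes+/+ LPS (2.99 ± 0.10, adjusted p = 1.4e-12). In Fes-/- it went from 58.01, 61.2 and 51 CPM under PBS to 401, 403 and 444 under LPS (2.87 ± 0.10, adjusted p = 2.09e-12), so all LPS libraries stood above all PBS libraries. The largest fall of all 143 genes was Slc26a11 (ENSMUSG00000039908, chromosome 11, 119355557 to 119381079, plus strand), a sulfate and chloride carrier. Its mean was 4208 counts under PBS and 44 under LPS, so its level under PBS alone brought it into the set. It was at 38.8, 69.4 and 47.8 CPM in Fes+/+ PBS and 0.756, 0.834 and 1.02 in Fes+/+ LPS. Its Fes-/- libraries were at 40.2, 32.5 and 49.9 CPM under PBS and 0.721, 0.742 and 0.994 under LPS. LPS libraries held about 1 CPM or less, and the change was -5.90 ± 0.27 and -5.66 ± 0.27.

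Potassium-chloride cotransporters were among the rises. Slc12a4 (KCC1) rose from 43.9 ± 6.02 to 182 ± 19.9 CPM in Fes+/+ (2.05 ± 0.11, adjusted p = 2.84e-10) and by 1.79 in Fes-/-. Slc12a7 (KCC4) rose by 1.003 and 0.93 by TMM, with 0.06 and -0.05 on log2(TPM + 1). Slc12a2 (NKCC1), which brings these ions in with sodium, was called in neither genotype by TMM (-0.12 ± 0.14 and 0.05 ± 0.14) and was lower by library totals (-1.03 and -0.89). Sodium-proton exchangers differed among themselves. Slc9a8, of the Golgi, rose by 1.23 in Fes+/+ and 1.13 in Fes-/- by TMM. It was called higher on every scaling in Fes+/+, and in Fes-/- the call was lost on another scaling. Slc9a5 reached 500 counts under PBS only. It fell from 14.6 ± 1.409 to 3.13 ± 0.45 CPM in Fes+/+ (-2.22 ± 0.12) and with a log2 change of -2.31 in Fes-/-. Slc9a9 and the sulfate carrier Slc26a2 were called in neither genotype by TMM. Slc8b1 (NCLX), which lets calcium out of mitochondria, fell from 73.8 ± 5.16 to 19.2 ± 1.10 CPM (-1.94 ± 0.10, adjusted p = 9.31e-11) in Fes+/+ and fell with a log2 change of -1.95 in Fes-/-. The phosphate importers Slc20a1 and Slc20a2 fell with log2 changes of -0.90 and -0.41 in Fes+/+, with -0.58 and -0.42 in Fes-/-, and the anion exchanger Slc26a6 with -0.82 and -0.67. The chloride-bicarbonate exchanger Slc4a2 and the sodium-calcium exchanger Slc24a3 rose by TMM (0.97 and 0.62 in Fes+/+) and were at 0.02 and -0.26 on log2(TPM + 1).

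Carriers of nucleotide sugars, which supply the Golgi and endoplasmic reticulum for glycosylation, numbered 19, of which 3 rose and 14 fell in each genotype by TMM (median -0.59 and -0.48), beside 34.6% and 38.8% of all genes in Fes+/+. By library totals 0 rose and 17 fell in each, beside 16.3% and 68.5% of all genes in Fes+/+, and on all 5 scalings 0 rose and 12 fell in both. Of the 19, Slc35a1, Slc35d2, Slc35e2 and Slc35e3 reached 500 counts under PBS only, so nothing is read from the count of falls. The largest fall was Slc35c1, which carries GDP-fucose, at 42.5, 46 and 45.3 CPM in Fes+/+ PBS and 15.4, 15.4 and 17 in Fes+/+ LPS (-1.49 ± 0.07, adjusted p = 1.15e-10). In Fes-/- it went from 43.4, 47.4 and 43.6 to 15.8, 15.4 and 16.2 CPM (-1.498 ± 0.07, adjusted p = 9.96e-11), and no PBS library overlapped an LPS library. Slc35c2, Slc35e2, Slc35b4 and Slc35e4 fell with log2 changes of -1.13, -1.30, -1.07 and -0.91 in Fes+/+. The CMP-sialic acid carrier Slc35a1 fell with log2 changes of -0.63 and -0.61, and Slc35b2, which brings in the sulfate donor PAPS, with -0.65 and -0.74. The 3 rises by TMM were Slc35a3 (UDP-N-acetylglucosamine; 0.85 and 0.84), Slc35b1, the ATP carrier of the endoplasmic reticulum (0.66 and 0.59), and Slc35d1 (0.61 and 0.70), and none of them was higher on log2(TPM + 1) (-0.09, -0.27 and -0.27 in Fes+/+). Slc35a5, Slc35d2, Slc35e1, Slc35e3 and Slc35f6 were lower on all 5 scalings as well. Slc35b3 and Slc35f5 fell by TMM (-0.21 and -0.48 in Fes+/+), and the UDP-galactose carrier Slc35a2 and Slc35a4 were called in neither genotype by TMM.

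Among 10 carriers of vitamins, choline, fatty acids and acetyl-CoA, 2 rose and 7 fell in Fes+/+ and 3 and 7 in Fes-/- by TMM. Beside this, 34.6% of all genes rose and 38.8% fell in Fes+/+. Of the 10, Slc19a1, Slc19a2 and Slc46a3 reached 500 counts under PBS only, so nothing is read from the count of falls. Slc44a1, a choline carrier, rose from 115 ± 4.46 to 659 ± 57.2 CPM in Fes+/+ and from 119 ± 3.81 to 604 ± 29.4 in Fes-/- (2.52 ± 0.08 and 2.34 ± 0.08, adjusted p = 1.37e-12 and 2.76e-12), and its relative Slc44a2 fell with log2 changes of -0.39 and -0.57. Slc23a2 (SVCT2), the sodium-linked carrier of vitamin C, rose from 93.5 ± 3.73 to 348 ± 17.7 and from 94.7 ± 12.8 to 395 ± 18.4 CPM (1.90 ± 0.09 and 2.06 ± 0.10). Slc19a2 (ENSMUSG00000040918, chromosome 1, 164249046 to 164265385, plus strand), a thiamine importer, was at 15.2, 14.7 and 18.9 CPM in Fes+/+ PBS and 1.36, 1.05 and 1.60 in Fes+/+ LPS. The Fes-/- libraries were at 19.5, 18.8 and 16.4 and 1.78, 2.33 and 1.73 CPM. All LPS libraries lay under 3 CPM, with changes of -3.60 ± 0.17 and -3.23 ± 0.16. Slc46a3, a lysosomal carrier of the folate-carrier family, fell from 32.1, 57.5 and 39.8 to 2.96, 6.54 and 4.37 CPM in Fes+/+. In Fes-/- its log2 change was -3.28 ± 0.31, with the highest SE of the 12 largest falls. The folate importer Slc19a1 fell with log2 changes of -0.57 and -0.40, the riboflavin carrier Slc52a2 with -0.30 and -0.34, and the fatty-acid carriers Slc27a1 and Slc27a4 with -0.64 and -0.27 in Fes+/+. Slc33a1, which brings acetyl-CoA into the endoplasmic reticulum, was at 0.15 ± 0.07 in Fes+/+ (adjusted p = 0.0745) and 0.25 ± 0.07 in Fes-/- by TMM (adjusted p = 0.00672), against -0.75 and -0.70 on log2(TPM + 1).

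The 9 carriers of organic acids and ions gave 2 rises and 5 falls in Fes+/+ and 2 and 4 in Fes-/- by TMM, beside 34.6% and 38.8% of all genes in Fes+/+. Slc13a3, a sodium-linked importer of succinate and other dicarboxylates, rose from 11.6 ± 1.35 to 40.99 ± 2.84 CPM in Fes+/+ and from 10.3 ± 1.23 to 34.9 ± 8.497 in Fes-/- (1.82 ± 0.15 and 1.76 ± 0.15, adjusted p = 6.31e-08 and 9.75e-08). Slc16a10 (TAT1), which carries aromatic amino acids, rose by 1.24 and 1.36 by TMM, and in Fes+/+ it lost the call on another scaling. The monocarboxylate carrier Slc16a7 (MCT2) fell with log2 changes of -1.11 and -1.11, the lysosomal sialic acid exporter Slc17a5 with -1.10 and -1.04, and the carnitine importer Slc22a5 (OCTN2) with -0.73 and -0.44. Slc22a5 shares 831 bases at 98.31% identity with Slc22a21, which held 301.2 mean counts beside 819.2. Slc16a6 fell in Fes+/+ (-0.49 ± 0.15, adjusted p = 0.00801) and was at -0.10 ± 0.15 in Fes-/-, and 21.54% of its exon length lies over Amz2 on the opposite strand. Slc22a15 fell with log2 changes of -0.35 and -0.63, and Slc10a3 and Slc10a7 were called in neither genotype by TMM. The last 3 rows of the set carry an Slc name without being carriers: the scaffold Slc9a3r1 (NHERF1) and Slc7a6os were called in neither genotype by TMM, and Slc4a1ap (kanadaptin) rose by 0.40 and 0.35 by TMM and fell by 0.51 and 0.58 on log2(TPM + 1).

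In TPM, the sum over all 143 genes was 9050 to 9500 under PBS and 8370 to 8660 under LPS, and its make-up shifted. The 3 nucleoside carriers went from 225 ± 14.3 to 1230 ± 160 summed TPM in Fes+/+ and from 211 ± 15.9 to 1200 ± 68.7 in Fes-/- (SD, n = 3), and Slc28a2 made up 1158 ± 160 of the Fes+/+ sum under LPS. The mitochondrial class went from 2530 ± 145 to 1570 ± 64.5 in Fes+/+ and from 2590 ± 68.0 to 1600 ± 16.4 in Fes-/-. Nucleotide sugar carriers held 750 to 769 summed TPM in the Fes+/+ PBS libraries and 282 to 301 in the LPS libraries, and 754 to 801 and 295 to 306 in Fes-/-. Sugar carriers were at 480 ± 6.29 and 593 ± 26.3 in Fes+/+, with Slc2a6 alone at 42.5 ± 12.3 and 497 ± 26.9, and amino acid carriers at 2180 ± 126 and 2350 ± 2.17. By gene, the most abundant under PBS in Fes+/+ were Slc25a5 (750 ± 97.9 TPM), Slc6a6 (634 ± 70.4) and Slc48a1 (338 ± 16.03). Under LPS they were Slc28a2 (1158 ± 160), Slc15a3 (827 ± 27.5) and Slc2a6 (497 ± 26.9), the last not beyond its spread from Slc7a8 (496 ± 13.6) and Slc25a5 (489 ± 41.6). These sums are descriptions with no test.

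**Figure D4:**
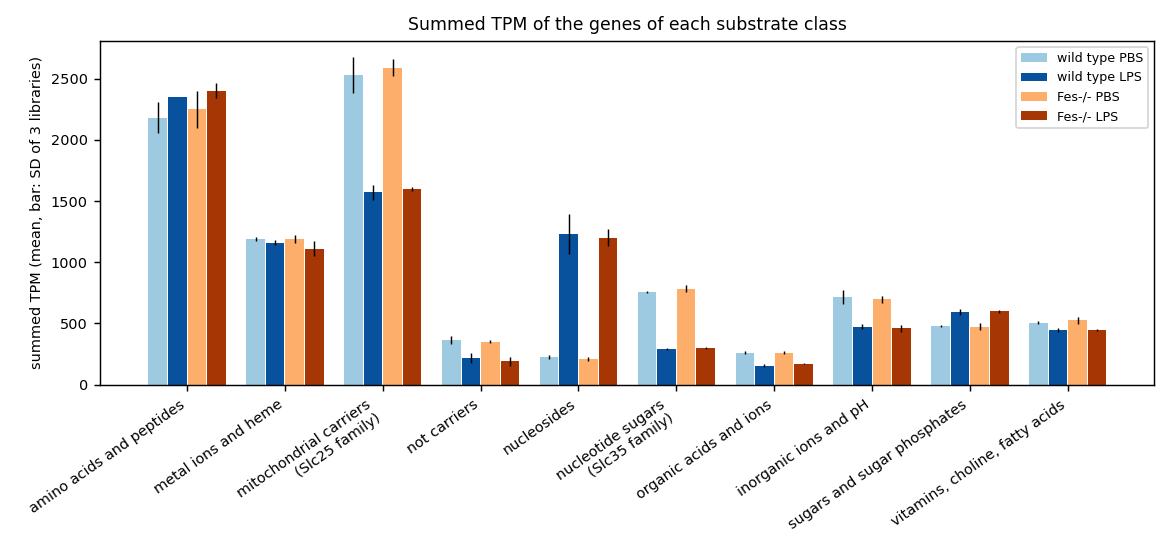
Summed TPM of the genes of each substrate class (y axis, from 0) in the 4 groups, as mean of 3 libraries with SD bars. The nucleoside bar rises with LPS from 225 to 1230 in Fes+/+, the mitochondrial and nucleotide sugar bars drop, and the 2 genotypes match within their error bars in most classes.

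Position in the genome was compared where carriers lie within 500 kb of each other, which gave 12 pairs. Slc28a2 and Slc30a4 lie 220 kb apart on chromosome 2 and both rose (5.40 and 3.48 in Fes+/+), as did Slc31a2 and Slc31a1 on chromosome 4 (2.76 and 1.16) and Slc7a7 and Slc7a8, 304 kb apart on chromosome 14 (2.02 and 1.74). Other neighbours moved apart: Slc38a1 and Slc38a2 (0.58 by TMM and -3.04), Slc13a3 and Slc35c2, 117 kb apart on chromosome 2 (1.82 and -1.13), and Slc12a4 and Slc7a6, 203 kb apart on chromosome 8 (2.05 and -0.84).

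Fes-/- macrophages were compared with Fes+/+ macrophages under PBS, under LPS and in the response to LPS, and none of the 143 carriers was called in any of the 3. Of all genes, 0.0823% were called under PBS, 0.108% under LPS and 0.019% for the difference of the LPS effects, so a count of 0 among 143 does not stand apart from the background. DESeq2 called 0 of the 143 as well, and the unadjusted p was under 0.05 for 2, 9 and 3 carriers by edgeR and 3, 11 and 5 by DESeq2. The intervals limit what could be missed: the 95% interval of the Fes-/- to Fes+/+ difference lay within 2-fold for 142 carriers under PBS and 140 under LPS. The exceptions were Slc7a5 under PBS (-0.06 to 1.56 on the log2 scale) and Slc37a1 (-1.09 to 0.02), Slc46a3 (-1.11 to 0.30) and Slc7a5 (-0.39 to 1.21) under LPS. Fes+/+ and Fes-/- libraries did not overlap in CPM for 8 carriers under PBS (5.59%, beside 6.82% of all genes) and for 18 under LPS (12.6%, beside 11.4%).

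**Figure D5:**
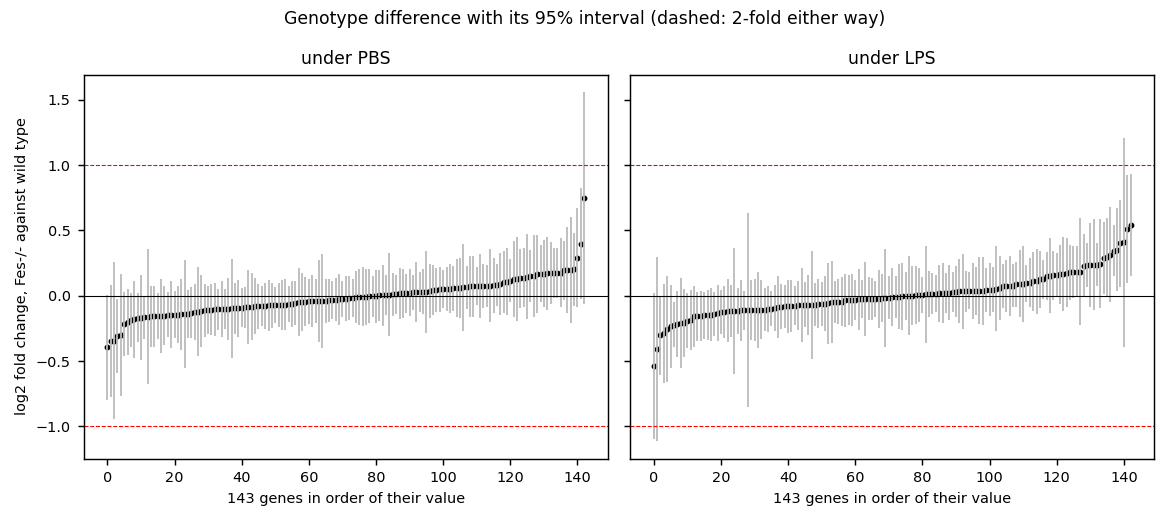
Log2 fold change of Fes-/- against Fes+/+ under PBS (left) and LPS (right) for the 143 genes in order of their value, with 95% intervals as grey lines and dashed lines at 2-fold. Intervals of 142 and 140 genes stay between the dashed lines; Slc7a5 lies farthest up under PBS at 0.75.

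The smallest p under LPS was that of Slc37a3, a sugar-phosphate-family protein that lets bisphosphonates out of lysosomes. It was at 23.4, 20.9 and 23.8 CPM in Fes+/+ LPS and 28.1, 31.9 and 26.6 in Fes-/- LPS libraries, with 17.9, 20.4 and 20.8 and 20.6, 19.6 and 19.1 CPM under PBS. The genotypes did not overlap under LPS and overlapped under PBS, and the difference under LPS was 0.34 ± 0.09 (edgeR adjusted p = 0.503). The difference of its LPS effects was 0.34 ± 0.13 (edgeR adjusted p = 1). Slc38a1, the glutamine carrier, was at 157, 149 and 154 CPM in Fes+/+ LPS and 175, 187 and 181 in Fes-/- LPS (0.24 ± 0.08, adjusted p = 0.696). The thiamine carrier Slc19a2 differed by 0.55 ± 0.18, Slc36a4 by 0.23 ± 0.08 and Slc44a2 by -0.22 ± 0.08 (adjusted p = 0.696, 0.696 and 0.719). Under PBS the 5 smallest p were those of Slc29a3 (-0.31 ± 0.13), Slc17a5 (-0.16 ± 0.08), Slc9a9 (-0.39 ± 0.18), Slc25a25 (0.40 ± 0.20) and Slc25a12 (0.17 ± 0.09), each with an adjusted p of 0.975. After Slc37a3, the smallest p for the difference of the LPS effects were those of Slc36a4 (0.27 ± 0.11), Slc45a4 (0.49 ± 0.22), Slc38a1 (0.23 ± 0.11) and Slc22a5 (0.28 ± 0.14), with an adjusted p of 1 each.

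Called in 1 genotype only for LPS, by TMM, were 10 carriers. Slc8a1, Slc9a7, Slc16a6, Slc29a3 and Slc41a1 fell in Fes+/+ only, and Slc25a24 and Slc66a2 fell in Fes-/- only. Slc33a1, Slc37a3 and Slc39a8 rose in Fes-/- only by TMM but fell by library totals. The lists hold for TMM alone, since Slc16a6 and Slc29a3 were called lower in both genotypes by library totals. The difference of the LPS effects had an adjusted p of 1 for each of the 10, so no difference between genotypes was shown for them. Without the filter on low counts, where 28358 genes are tested in place of 15801, edgeR called 2 carriers between genotypes under PBS (Slc7a5 and Slc9a9) and 4 under LPS (Slc7a5, Slc16a6, Slc20a1 and Slc43a3). Their adjusted p over the other 20 alternatives ran from 0.306 to 1. The PBS libraries of Slc7a5 were at 12.9, 7.996 and 14.7 CPM in Fes+/+ and 16.4, 31.1 and 12.3 in Fes-/-, where 1 library stood well above the other 2.

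Other transport genes, chosen as lists with earlier results of these data known, moved with LPS as follows. Of 27 ATP-binding cassette transporters, 5 rose and 16 fell in Fes+/+ and 5 and 14 in Fes-/- by TMM (all genes 34.6% and 38.8% in Fes+/+), and by library totals 3 rose and 24 fell in each genotype (all genes 16.3% and 68.5% in Fes+/+). The multidrug and leukotriene exporter Abcc1 was at 169 ± 13.96 and 372 ± 10.4 CPM in Fes+/+ (1.14 ± 0.07), the nucleotide and prostanoid exporter Abcc4 at 30.6 ± 2.86 and 103 ± 13.1 (1.75 ± 0.12), and the lysosomal cobalamin transporter Abcd4 at 17.9 ± 0.474 and 6.65 ± 0.462 (-1.43 ± 0.09). Of 13 ATP-driven ion pumps tested, 9 rose and 2 fell in Fes+/+ and 10 and 1 in Fes-/-, but by library totals the counts in Fes+/+ were 2 and 7. Atp2b4, a plasma-membrane calcium pump, was at 7.53 ± 0.367 and 175 ± 30.2 CPM (4.54 ± 0.24) and was 3.19 higher on log2(TPM + 1). Of 38 carriers that are named otherwise, 12 rose and 19 fell in Fes+/+ and 12 and 18 in Fes-/- by TMM, and by library totals 4 rose and 31 fell in each. The organic anion carrier Slco3a1 was at 1.97 ± 0.427 and 224 ± 8.86 CPM (6.83 ± 0.19), and Ctns, the cystine exporter of lysosomes, at 42.04 ± 6.05 and 5.71 ± 0.202 (-2.88 ± 0.11).

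Among 14 partners and controls of carriers at the cell surface, 4 rose and 6 fell in Fes+/+ and 5 and 7 in Fes-/- by TMM, and by library totals 14 and 13 fell and 0 rose. For all genes in Fes+/+ the shares were 34.6% higher and 38.8% lower by TMM, and 16.3% and 68.5% by totals. The arrestin-domain adaptors, which mark surface proteins for uptake, gave the 3 smallest p. Arrdc3 was at 86.97 ± 18.5 and 2.42 ± 0.206 CPM in Fes+/+ (-5.17 ± 0.17, adjusted p = 1.94e-12) and at 69.02 ± 9.28 and 2.87 ± 0.184 in Fes-/-. Arrdc2 was at 16.1 ± 3.06 and 1.08 ± 0.117 CPM (-3.88 ± 0.22), and Arrdc1 at 57.9 ± 2.78 and 31.01 ± 0.225 (-0.90 ± 0.07). Of 8 genes of voltage-dependent anion channels, the translocator protein and the mitochondrial calcium uniporter, 4 rose and 0 fell in Fes+/+ by TMM, while by totals 1 rose and 6 fell; Tspo, the translocator itself, rose by 1.96 and by 1.04 on log2(TPM + 1). By edgeR no gene of these 5 lists was called between genotypes; at an unadjusted p under 0.05 it found 0 to 2 genes a list under PBS and 0 to 4 under LPS.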

How the data were processed

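Poly-A RNA from 12 macrophage libraries was sequenced, and the authors deposited raw counts and TPM for each gene. Per the submitters' processing notes the tools were DESeq2 1.34.0, R 4.1.12, Picard 2.9.0 and STAR 2.7.8a and the builds mm9 and GRCm38, with no roles named. The counting program and its strand setting are not given in the sources used here, so reads of genes that overlap on opposite strands cannot be told apart. Every gene ID of the 143 carriers matched GENCODE M21.

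Counts as deposited were fitted with edgeR 4.0.16 (R 4.3.3; robust quasi-likelihood, TMM factors, 4 group means over 12 libraries) after filterByExpr, which left 15801 of 55487 genes. Benjamini-Hochberg adjusted p under 0.05 over these genes was called, and "SE" is the standard error of the log2 fold change. The comparisons were LPS against PBS in each genotype, genotype in each treatment, and the difference of the LPS effects. Alternatives were RLE factors, library totals, DESeq2 1.42.0, no filter, 1 CPM in 3 libraries, 6 libraries alone, limma 3.58.1 on log2(TPM + 1) and log2(TPM + 0.1), a replicate block, and leaving out each library. Scripts were tested on simulated data.

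PBS and LPS libraries of the same number and genotype deviated together (correlations 0.257 to 0.444 over 8260 genes, each library best with its own number). The labels give 3 mice for each genotype. Numbers across genotypes did not pair (-0.645 to -0.153).

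The members, classes, marker and gene lists and tests were chosen with earlier results of these data known. Named by rule were the 12 highest rises and 12 largest falls called in both genotypes, in each class the 2 genes of highest TPM and the one of largest change, the 5 smallest p of each genotype comparison, the 5 genes on each side of the 500-count level, and up to 3 genes of each other list by smallest p. Further genes of a class, named so that each count can be read, were chosen after their values were seen. Slc4a1ap was moved from the carriers to the 3 other proteins by its function. Near copies were searched with BLAST 2.17.0 in GENCODE M21 transcripts, and promoters came from RefSeq (GRCm38.p6). The results of 5 genes, 1 of them with a DESeq2 call between genotypes, are not reported here.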

Additional observations from a re-analysis of the deposited data

How the results depend on the processing

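Of 143 carriers, 47 rose and 71 fell with LPS in Fes+/+ and 50 rose and 68 fell in Fes-/-. By library totals 25 rose and 109 fell in Fes+/+ and 24 rose and 107 fell in Fes-/-. On log2(TPM + 1) and on log2(TPM + 0.1) alike, 22 rose and 109 fell in Fes+/+ and 23 rose and 108 fell in Fes-/-. These scalings keep a difference between PBS and LPS libraries that TMM takes out, and whether it is one of composition was not tested. Under RLE factors, DESeq2, no filter, a filter of 1 CPM in 3 libraries, and fits of 6 libraries alone, the LPS counts stayed within 1.5 times. No carrier was called between genotypes except without the filter, where 2 were under PBS (1 higher, 1 lower) and 4, all higher, under LPS. With the replicate block within each genotype, whose pairing the numbers support (correlations of 0.257 to 0.444), 125 carriers were called in Fes+/+ (49 higher, 76 lower) and 120 in Fes-/- (50 higher, 70 lower). The genotypes were compared in another fit, with a block on replicate number across both genotypes, which called 0 carriers. Numbers did not pair across genotypes (-0.645 to -0.153), so nothing is read from that fit. Without 1 library each, 111 to 120 were called in Fes+/+ (43 to 50 higher, 68 to 73 lower) and 112 to 119 in Fes-/- (49 to 51 higher, 62 to 69 lower), and 0 between genotypes or for the difference of LPS effects.

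Among the genes named for the size of their LPS change or for their TPM, those that changed sign did so mostly by totals, log2(TPM + 0.1) and log2(TPM + 1), in that order. In Fes+/+ these were Slc25a3 (-0.72, -0.75, -0.75), Slc25a5 (-0.59, -0.61, -0.61), Slc4a1ap (-0.52, -0.54, -0.51), Slc6a6 (-0.48, -0.51, -0.51) and Slc9a3r1 (-0.72, -0.77, -0.76). In Fes-/- they were Slc25a3 (-0.74, -0.78, -0.78), Slc25a5 (-0.57, -0.61, -0.61), Slc4a1ap (-0.58, -0.62, -0.58), Slc6a6 (-0.51, -0.56, -0.56) and Slc9a3r1 (-0.83, -0.88, -0.88). Near zero, Slc9a3r1 lay between -0.0022 (without Fes+/+ LPS replicate 2) and 0.32 in Fes+/+ and between -0.043 (without Fes-/- LPS replicate 3) and 0.24 in Fes-/- when 1 library was left out. Slc9a9 lay between -0.32 and 0.022 (without Fes+/+ PBS replicate 2) in Fes+/+ and between -0.17 and 0.16 in Fes-/-, with 0.017 without Fes-/- LPS replicate 2, 0.16 without Fes-/- PBS replicate 3 and 0.0085 under RLE factors. Of the genes named for other reasons, Slc24a3 (-0.28 and -0.24 by totals in Fes+/+ and Fes-/-), Slc38a1 (-0.34 and -0.13) and Slc37a3 (-0.71 and -0.39) changed sign too. So did Slc12a2 in Fes-/- (0.05 by TMM and -0.89 by totals). The level of 500 counts is a mean over both treatments, and under LPS Slc26a11 averaged 44 counts and Slc19a2 88.67.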
